A study of Amia calva with 36 samples.

Results

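Dorsal and ventral foregut endoderm of the bowfin, Amia calva, were compared at Ballard stage 27, when the gas bladder is growing out. The comparison takes the 3 libraries labelled dorsal endoderm and the 3 labelled ventral endoderm at that stage, 6 of the 36 libraries of the study. The 6 mesoderm libraries of stage 27, 3 from each side, served to show how much of the reads in the endoderm captures fell in genes higher in mesoderm. The study asked how the 2 sides of the foregut differ before budding, at budding and during outgrowth of the gas bladder, at stages 24, 25 and 27.

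All groups came from embryos of wild parents. Fertilized eggs were taken from lake nests and kept at 12.8 °C, and no strain, genotype or treatment separates the groups. Embryos were cut transversely at 15 µm along the length of the gas bladder bud, and the dorsal and the ventral region of each layer were cut out by laser within 2 hours per slide. Labels give a replicate number to each library but do not tie libraries to embryos. Regions of different libraries may therefore come from the same animals. Animals shared among libraries of 1 group would make the p-values too small, whether any are shared is not given, and the tests reflect library-to-library spread alone.

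Lungs of land vertebrates bud from the ventral foregut, whereas the gas bladder of most ray-finned fishes, the bowfin included, arises dorsally. In both organs the endoderm gives rise to the epithelium that lines the air space. The mesoderm around it forms the connective tissue, vessels and smooth muscle of the wall, and signals pass between both layers during budding.

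The deposited table gives 21948 gene models by identifier, of which 11428 carry a spotted gar Ensembl identifier. Gene symbols were matched to 0 of them, so genes are named by identifier and no roles are given. Levels are given as CPM, reads scaled to the reads assigned to genes in the library, and they are not scaled by gene length. Dorsal endoderm replicates 1, 2 and 3 held 1557499, 934703 and 843618 reads. Ventral endoderm replicates 1, 2 and 3 held 1998280, 1129243 and 1447274 reads. Thinned to 723011 reads, the dorsal endoderm libraries had a read in 12365, 8373 and 10513 genes, and the ventral ones in 11440, 10594 and 8216. Detection thus spread widely within each side and the groups overlapped, with a difference between the means of 334 genes (10417 ± 1998 against 10083 ± 1672, SD, n = 3 each, exact two-sided permutation p = 0.8; the smallest p that 3 against 3 libraries allow is 0.1). Dorsal replicate 2 and ventral replicate 3 each had no read in 37.6% of the 13471 genes tested, against 9.11% to 23.0% in the other 4 endoderm libraries.

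Ranks of the genes were about as similar between the endoderm sides as between replicates of 1 side. Spearman's rho over the genes tested, given as a description, ran from 0.588 to 0.808 between the sides (9 pairs, mean 0.706), from 0.655 to 0.790 within dorsal endoderm (3 pairs, mean 0.715) and from 0.677 to 0.751 within ventral endoderm (3 pairs, mean 0.707). Between endoderm and mesoderm of the same side it was lower on average, with ranges that overlapped those within endoderm. It ran from 0.472 to 0.679 over 9 dorsal pairs (mean 0.571) and from 0.549 to 0.721 over 9 ventral pairs (mean 0.624).

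The layer labels were checked with gene lists, since the usual marker genes could not be looked up by name. At stages 24 and 25, 7 of 10027 genes tested were higher in mesoderm and 7 in endoderm by limma's moderated test (adjusted p under 0.05, 24 libraries). In dorsal endoderm replicates 1, 2 and 3 the mesoderm list took 0.0639%, 0.0677% and 0.0903% of reads. In ventral endoderm it took 0.152%, 0.0240% and 0.0451%, and in the 6 mesoderm libraries 0.632% to 0.999%. Every endoderm library thus lay below every mesoderm library, and the ventral libraries lay on both sides of the dorsal ones. The means of the sides were nearly equal (0.0740 ± 0.0143% dorsally, 0.0738 ± 0.0689% ventrally, SD, n = 3, exact two-sided permutation p = 1). In mesoderm the list had a lower mean dorsally than ventrally (0.718 ± 0.0988% against 0.939 ± 0.105%, SD, n = 3, exact two-sided permutation p = 0.2). Nearly equal shares in endoderm therefore need not mean equal mesoderm content. Reads of all 7 genes were found in dorsal replicates 1 and 3 and in ventral replicate 1. AMCG00017661 was at 0 in dorsal replicate 2 and in ventral replicates 2 and 3, and AMCG00018924 and AMCG00021537 were at 0 in ventral replicate 3 as well.

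Of the endoderm list, AMCG00006382 was as abundant in stage 27 mesoderm as in endoderm, so it does not mark the layer there. The other 6 genes took 0.451 ± 0.0208% of reads in dorsal and 0.422 ± 0.0321% in ventral endoderm (SD, n = 3, exact two-sided permutation p = 0.3), against 0.0409 ± 0.0268% in dorsal and 0.0785 ± 0.0226% in ventral mesoderm. The most abundant of these, AMCG00001150, stood at 1493, 1127 and 1281 CPM in dorsal endoderm and at 1116, 1710 and 2543 CPM in ventral endoderm. Mesoderm of either side held 38.7 to 346 CPM of it, so all 6 endoderm libraries were above all 6 mesoderm libraries.

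A wider list came from stage 27 itself. Over both sides, 878 genes (6.52% of those tested) were higher in mesoderm and 495 (3.67%) were higher in endoderm (limma, adjusted p under 0.05). The 878 mesoderm-higher genes took 3.72%, 3.79% and 3.71% of reads in dorsal endoderm, 4.40%, 2.40% and 2.46% in ventral endoderm, and 15.5% to 19.7% in mesoderm. They were chosen as higher in mesoderm in these same libraries, so the gap between the layers follows from the choice. Ventral replicate 1 was the highest of the 6 endoderm libraries and ventral replicates 2 and 3 were the lowest (dorsal mean 3.74 ± 0.0457%, ventral mean 3.09 ± 1.14%, SD, n = 3, exact two-sided permutation p = 0.4). A longer early list of 88 of the 10027 genes was taken at an unadjusted p under 0.01 (limma), where 54 genes were higher in endoderm. With so many genes tested at that threshold, many of the 88 may be false calls. This list, which includes the 7 genes of the shorter one, also had ventral replicate 1 highest (1.18%, 0.523% and 0.578%, against 0.815%, 0.977% and 0.833% dorsally, exact two-sided permutation p = 0.6). A read was found for 733, 410 and 554 of the 878 in dorsal endoderm and for 709, 439 and 285 in ventral endoderm. Detection over all genes tested also differed between these libraries, as given above.

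**Figure D1:**
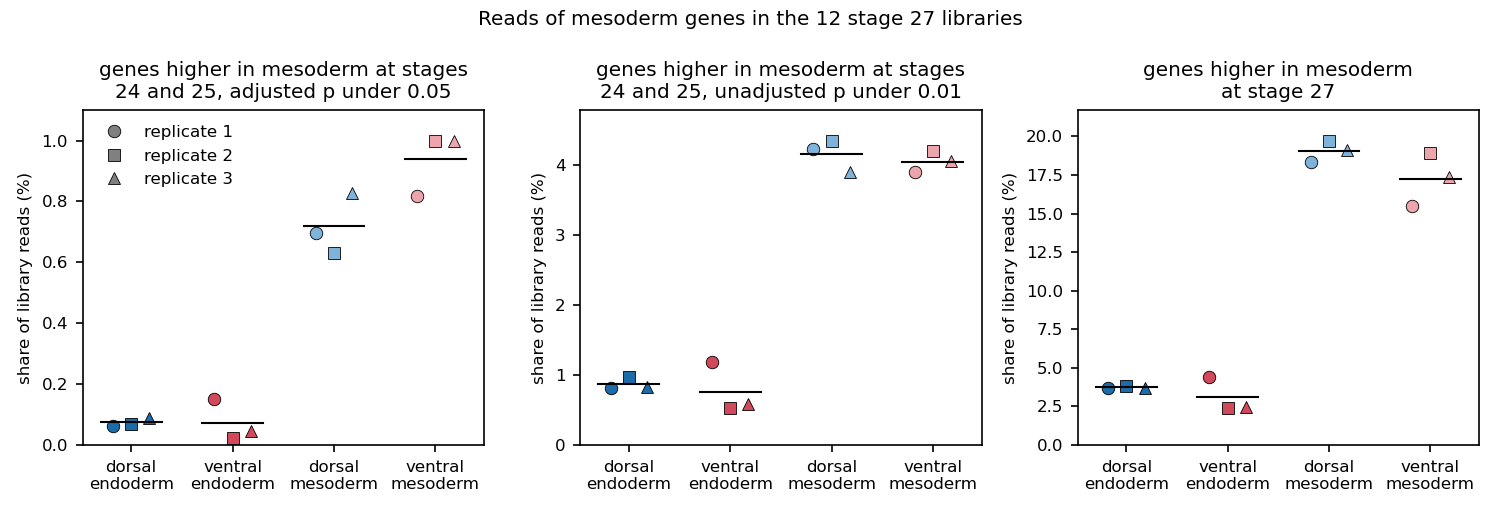
Share of each stage 27 library's reads, in percent, that falls in the 7-gene early mesoderm list (left), an 88-gene early list (middle) and the 878 genes higher in mesoderm at stage 27 (right), with 1 point per library and bars for the group means. Endoderm libraries lie far below mesoderm libraries, and ventral endoderm replicate 1 lies above ventral replicates 2 and 3. In the right panel the gap between the layers follows from the choice of the genes in these same libraries.

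Between the sides of the endoderm, 5 of 13471 genes tested (0.0371%) differed, and all 5 were higher dorsally (limma on the deposited log2 CPM, 12 stage 27 libraries, Benjamini-Hochberg adjusted p under 0.05). No gene was higher ventrally past the threshold, where the smallest adjusted p was 0.0878. The unadjusted p was under 0.05 for 768 genes (5.70%), 465 of them higher dorsally (3.45%) and 303 higher ventrally (2.25%). All 3 dorsal libraries were above all 3 ventral ones for 587 genes (4.36%), and the reverse held for 414 (3.07%). The median difference over the genes tested was 0.01 on the log2 scale, with a median standard error of 1.05. The model gives each gene 1 spread over all 4 groups, so the mesoderm libraries enter the standard errors and intervals of the endoderm differences. Differences are on the log2 scale of CPM with a prior count of 2 reads, which understates the change of low genes.

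Each of the 5 genes was also higher in mesoderm than in endoderm at stage 27, with adjusted p between 1.13e-08 and 0.000120 for the layers (limma). The mesoderm shares given above, which were highest in ventral replicate 1 and lowest in ventral replicates 2 and 3, stand beside all 5 differences. All 5 genes are among the 878 and 3 of them are in the 88-gene list. Their own reads are part of those shares, which are therefore no separate evidence. The 7-gene list holds 0 of them. With the share of the 7-gene early list as a covariate within endoderm, an alternative added after the data were seen, the differences of the 5 genes in the order described next were 4.96, 3.79, 4.12, 4.17 and 4.05, against 5.23, 4.75, 4.69, 4.69 and 4.20 without it. The first 4 passed, and AMCG00017621 did not (limma adjusted p = 0.119), although its difference was nearly as large. In captured tissue, fewer cells of a type and less RNA per cell cannot be told apart. Mesoderm carried into the captures and expression in the endoderm itself cannot be told apart with these libraries either.

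AMCG00016115, paired with gar ENSLOCG00000008539, differed most. Dorsal endoderm replicates 1, 2 and 3 held 299.8, 271 and 121 CPM of it, and ventral endoderm 10.0, 0.886 and 4.15 CPM. Dorsal mesoderm held 1384, 1444 and 1631 CPM and ventral mesoderm 59.2, 23.0 and 84.6 CPM. In both layers all dorsal libraries were above all ventral ones. The difference was 5.23 in endoderm (SE 0.74, 95% interval 3.74 to 6.72, limma adjusted p = 0.000296) and 4.87 in mesoderm (adjusted p = 0.000389). The difference between these was 0.36, with an interval of -1.75 to 2.46 (adjusted p = 0.991). Its mean in endoderm came to 15.5% of its mean in mesoderm dorsally and to 9.02% ventrally.

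AMCG00016707 stood at 467, 803 and 280 CPM in dorsal endoderm and at 412, 5.31 and 0 CPM in ventral endoderm. Ventral replicate 1 thus lay above dorsal replicate 3, and the groups overlapped. In mesoderm the gene held 2812 to 4271 CPM dorsally and 2097 to 3597 CPM ventrally, also with overlap. Its difference was 4.75 in endoderm (SE 0.89, 95% interval 2.94 to 6.57, limma adjusted p = 0.0187) and 0.39 in mesoderm (interval -1.43 to 2.20, adjusted p = 0.984), and the difference between the layers, 4.37, did not pass (adjusted p = 0.662). The SE and interval pool all 4 groups, although the ventral endoderm values ran from 0 to 412 CPM. Fitted on the endoderm libraries alone, the limma adjusted p was 0.894.

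The other 3 of the 5 fall outside the rule of 2 genes per direction and are named because so few were called, a choice made after their values were seen. AMCG00009892 stood at 318, 959 and 408 CPM in dorsal endoderm and at 170, 21.3 and 0 CPM in ventral endoderm, with all dorsal libraries above the ventral ones. Its difference was 4.69 (SE 0.80, limma adjusted p = 0.00428), against 0.75 in mesoderm (adjusted p = 0.940), where it held 893 to 2331 CPM. AMCG00004458, paired with gar ENSLOCG00000003395, stood at 61.6, 119.8 and 121 CPM in dorsal endoderm, and in ventral endoderm 14.5 CPM in replicate 1 and 0 in replicates 2 and 3. Dorsal libraries were again above ventral ones in both layers, with a difference of 4.69 in endoderm (SE 0.75, limma adjusted p = 0.00209) and 1.36 in mesoderm (adjusted p = 0.774), where dorsal libraries held 965 to 1363 CPM and ventral ones 234 to 613. AMCG00017621, paired with gar ENSLOCG00000010330, stood at 61.0, 38.5 and 29.6 CPM in dorsal endoderm, and ventrally at 2.00 CPM (4 reads) in replicate 1 and at 0 in the others. The groups did not overlap in either layer, and the difference was 4.20 in endoderm (SE 0.82, limma adjusted p = 0.0284) and 1.93 in mesoderm (adjusted p = 0.620). None of these 3 differed between the layers in its side difference past the threshold (adjusted p 0.654 to 0.941).

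**Figure D2:**
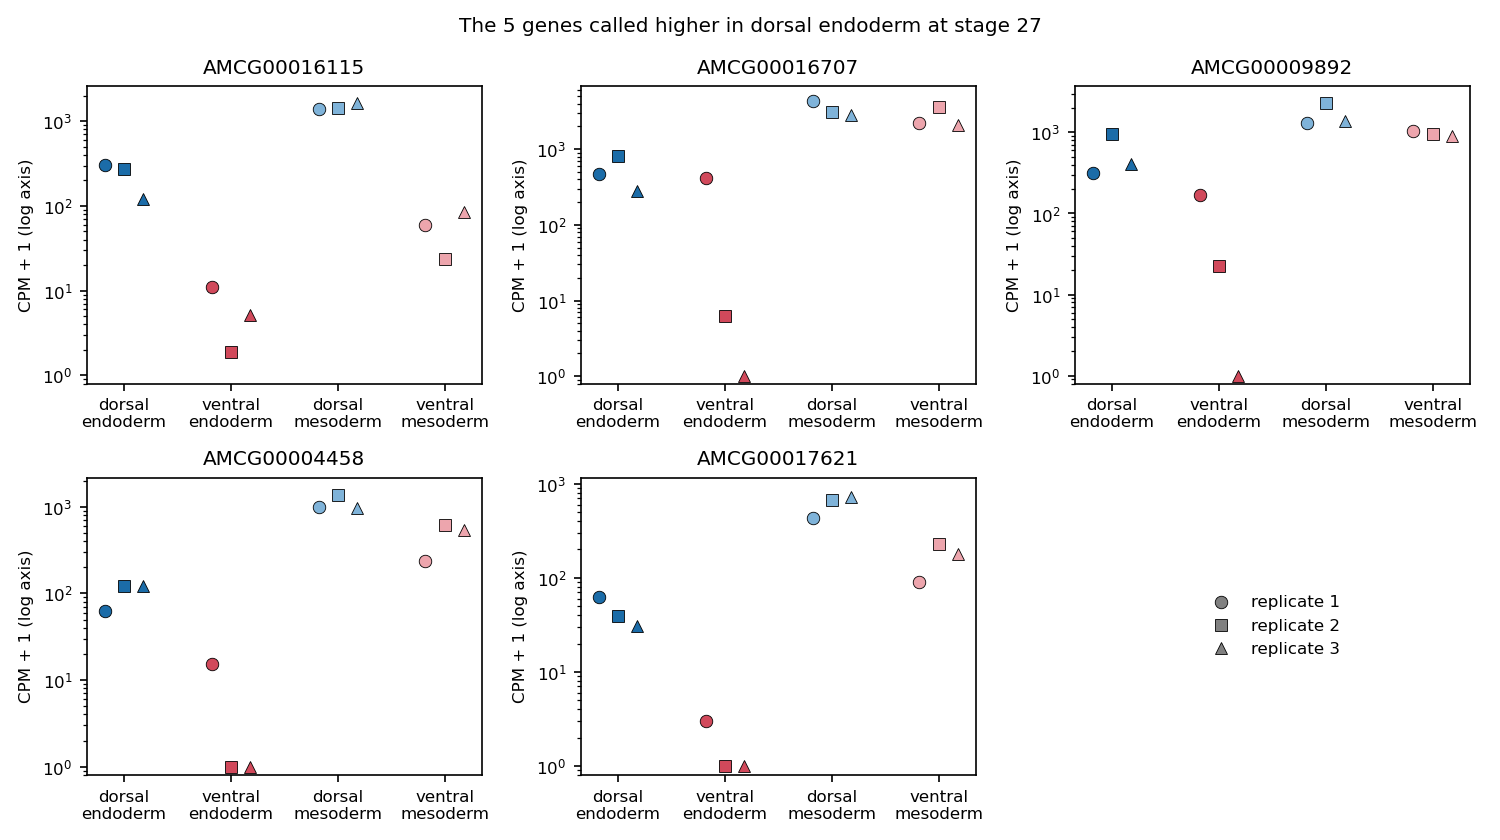
Level as CPM plus 1, on a log axis, of the 5 genes higher in dorsal than in ventral endoderm in each of the 12 stage 27 libraries, with 1 point per library. Ventral endoderm replicate 1 holds the highest ventral endoderm value of each gene, and mesoderm libraries of the same side lie above the endoderm ones.

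Which libraries and settings entered decided these calls. Fitted on the 6 endoderm libraries alone, the sizes stayed and 0 genes passed, with an adjusted p of 0.894 for each of the 5 and an unadjusted p under 0.05 for 468 genes. Without ventral replicate 1, the endoderm library with the highest share of reads in mesoderm-higher genes, 49 genes passed (0.364%), the 5 among them, 46 higher dorsally and 3 ventrally. Without dorsal replicate 2 only AMCG00016115 passed, and 3 genes passed without ventral replicate 3, dorsal mesoderm replicate 1 or ventral mesoderm replicate 2. With all 36 libraries in the model 56 genes passed, 33 higher dorsally and 23 ventrally, with 0 of the 5 among them, and with no variance trend 0 passed.

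All 5 calls fell among the mesoderm-higher genes. Of the 878 mesoderm-higher genes, 103 (11.7%) had an unadjusted p under 0.05 between the endoderm sides, 92 of them higher dorsally, and 5 were called. Their median difference was 0.24 against 0.01 over all genes, and 59.2% were positive against 50.3%. Of the 495 endoderm-higher genes, 22 (4.44%) had an unadjusted p under 0.05, 12 higher dorsally and 10 ventrally, 0 were called, and their median difference was -0.07. Among the other 12098 genes, 643 (5.31%) had an unadjusted p under 0.05 and 0 were called. The lists come from the same 12 libraries, so these counts describe them and are no independent evidence. The spread of each gene is also pooled over endoderm and mesoderm libraries, which bears on which genes are called.

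Ventral replicate 1 moved these medians. Without it, the median difference was 0.63 for the mesoderm-higher genes, -0.18 for the endoderm-higher genes and 0.14 for all genes. Ventral replicate 1 held the highest share of reads in the mesoderm-higher genes. It also had fewer of all genes tested at 0 than ventral replicates 2 and 3 (13.0% against 21.6% and 37.6%). The part of either in the rise of the median was not tested. Medians without other libraries were not taken, and the gene classes were not chosen anew. Of the 49 genes then called, 39 were mesoderm-higher and 1 was endoderm-higher, against 6.52% and 3.67% of all genes tested. Where the non-overlap of all 6 libraries was counted instead, 37 mesoderm-higher genes (4.21%) were higher dorsally, close to the 4.36% of all genes, and 7 (0.797%) ventrally, against 3.07% of all genes.

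The level of mesoderm-higher genes in the endoderm captures was uneven between libraries. Mesoderm-higher genes at 20 CPM or more in same-side mesoderm numbered 762 dorsally and 718 ventrally. Their median level in endoderm was 10.7%, 0.748% and 6.41% of the mesoderm mean in dorsal replicates 1, 2 and 3. In ventral replicates 1, 2 and 3 it was 17.7%, 1.35% and 0%. These genes were at 0 reads for 9.33% of them in ventral replicate 1, 40.8% in replicate 2 and 60.7% in replicate 3. Dorsal replicates had 10.6%, 47.5% and 30.1% at 0. Over all genes tested, 13.0%, 21.6% and 37.6% were at 0 in ventral replicates 1, 2 and 3. Dorsally these shares were 9.11%, 37.6% and 23.0%. The part of overall detection in the levels of the mesoderm-higher genes was not tested. Replicate 1 of either side thus had the fewest of the mesoderm-higher genes at 0, as over all genes. For those at 20 CPM or more in same-side mesoderm, ventral replicate 3 was the only 1 of the 6 libraries with most at 0. Of all 878, dorsal replicate 2 also had most at 0 (468), and ventral replicates 2 and 3 had 439 and 593 at 0.

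**Figure D3:**
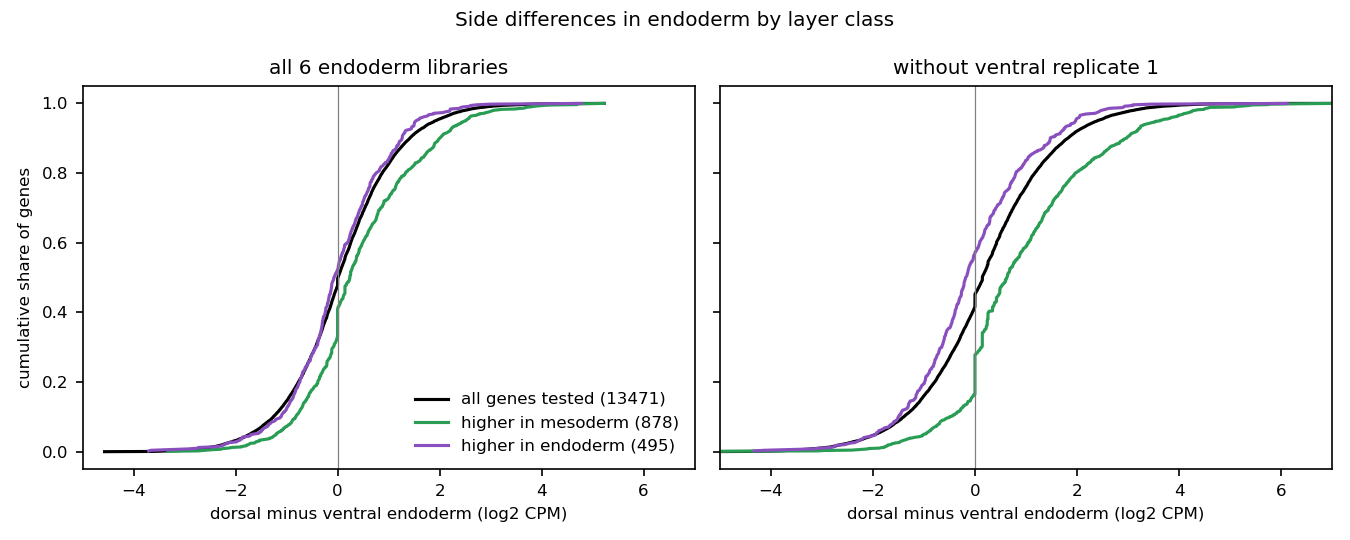
Cumulative share of genes by dorsal minus ventral difference in endoderm, on the log2 scale, for all genes tested, genes higher in mesoderm and genes higher in endoderm at stage 27, with all libraries (left) and without ventral endoderm replicate 1 (right, where a few genes lie beyond the axis). The median of the mesoderm-higher genes moves from 0.24 to 0.63 and that of all genes from 0.01 to 0.14. The library left out had the highest endoderm share of reads in the mesoderm-higher genes, and the part of that share in the rise was not tested.

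On the ventral side, 2 genes came nearest to the threshold. AMCG00010986, paired with gar ENSLOCG00000005299, held 439, 236 and 225 CPM in dorsal endoderm and 1204, 1182 and 1691 CPM in ventral endoderm. It held 53.9 to 233 CPM in dorsal and 458 to 657 CPM in ventral mesoderm. Ventral libraries were above dorsal ones in both layers, and endoderm was above mesoderm over the sides (1.17 on the log2 scale, limma adjusted p = 0.0291). Its side difference was -2.22 in endoderm (SE 0.50, 95% interval -3.24 to -1.20, adjusted p = 0.0878) and -1.95 in mesoderm (adjusted p = 0.108), so neither passed. With precision weights per value (voom on the recovered reads) the endoderm difference passed at an adjusted p of 0.0484, with weights per library at 0.0492, and without dorsal mesoderm replicate 3 at 0.0175.

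AMCG00020610, paired with gar ENSLOCG00000002734, held 225, 23.5 and 161 CPM in dorsal and 310, 846 and 679 CPM in ventral endoderm. The groups did not overlap, although ventral replicate 1 was near dorsal replicate 1. Its difference was -2.53 (SE 0.58, limma adjusted p = 0.0878), and it passed without dorsal endoderm replicate 1 (0.0424) or ventral endoderm replicate 1 (0.0198). In mesoderm it held 403 to 546 CPM dorsally and 829 to 1587 CPM ventrally (difference -1.18, adjusted p = 0.727).

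The side difference itself differed between the layers for 2 of 13471 genes (0.0148%, interaction contrast of the same limma model). AMCG00009551, paired with gar ENSLOCG00000006200, held 1002, 1073 and 890 CPM in dorsal endoderm and 679, 1274 and 1419 CPM in ventral endoderm, with overlap. In mesoderm it held 19.6, 5.30 and 1.38 CPM dorsally and 187, 235 and 199 CPM ventrally, with a wide gap. The difference was -0.12 in endoderm (95% interval -1.36 to 1.12) and -4.72 in mesoderm (adjusted p = 2.36e-05), and the contrast of the layers was 4.60 (SE 0.86, adjusted p = 0.0366). Endoderm stood above mesoderm on both sides. The 495 endoderm-higher genes took 2.21 ± 0.441% of reads in dorsal and 3.62 ± 0.105% in ventral mesoderm (SD, n = 3, exact two-sided permutation p = 0.1, the smallest possible), and the part of that gap in this contrast was not tested.

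AMCG00004892 ran the other way in the layers. It held 1113, 695 and 1309 CPM in dorsal and 1919, 1294 and 3036 CPM in ventral endoderm, where ventral replicate 2 lay just under dorsal replicate 3. In mesoderm it held 2905, 6925 and 3304 CPM dorsally and 1155, 1484 and 1285 CPM ventrally, with no overlap. Its difference was -0.96 in endoderm (limma adjusted p = 0.665) and 1.64 in mesoderm (adjusted p = 0.0168), and the contrast was -2.60 (SE 0.48, adjusted p = 0.0366). Calls of this contrast were unstable, with 9 genes without ventral endoderm replicate 1 and 1 without ventral endoderm replicate 2 or dorsal endoderm replicate 3. None passed without dorsal endoderm replicate 1 or 2, ventral endoderm replicate 3, dorsal mesoderm replicate 2 or any 1 of the ventral mesoderm replicates (580 to 759 genes at an unadjusted p under 0.05).

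**Figure D4:**
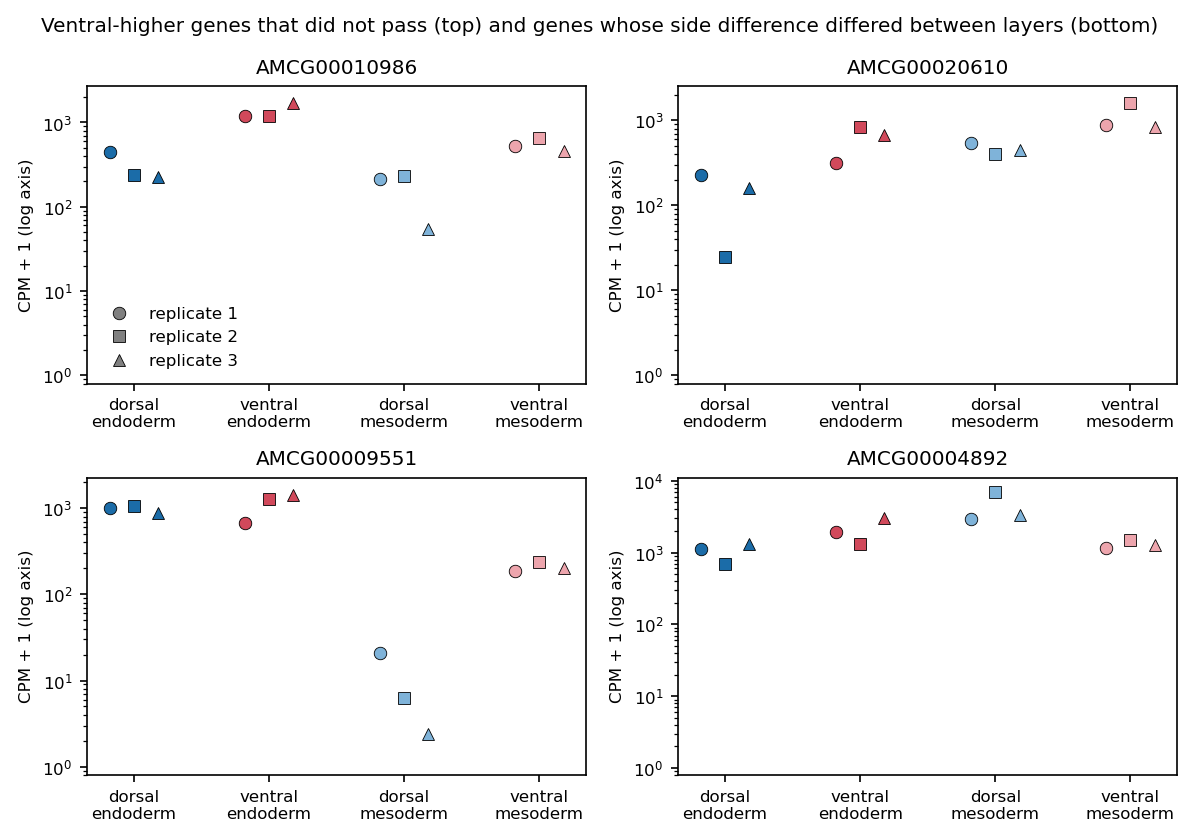
Level as CPM plus 1, on a log axis, of the 2 genes nearest to the threshold on the ventral side and the 2 genes whose side difference differed between layers, with 1 point per stage 27 library. AMCG00009551 is level between the endoderm sides and split between the mesoderm sides.

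In mesoderm, 37 genes (0.275%) differed between the sides, 9 higher dorsally and 28 ventrally (limma, adjusted p under 0.05). All 3 dorsal mesoderm libraries were above the ventral ones for 604 genes (4.48%), and the reverse held for 1011 (7.51%). Only AMCG00016115 was called in both layers. Of the 9 genes higher in dorsal mesoderm, 5 had the same sign in endoderm (median endoderm difference 0.52), and 3 had no read in any endoderm library. Of the 28 higher in ventral mesoderm, 14 were endoderm-higher and 8 were mesoderm-higher, against 3.67% and 6.52% of all genes tested. The 495 endoderm-higher genes took more reads in ventral than in dorsal mesoderm, as given above. The part of that read share in the 28 calls was not tested. Of the same 28, 21 had the same sign in endoderm, 0 were called there and their median difference was -0.23. In mesoderm the median differences of the 9 and the 28 were 4.10 and -4.60.

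The called genes with the largest side differences in mesoderm, 2 per direction, had low levels in endoderm. AMCG00008538 held 1046, 2379 and 1474 CPM in ventral mesoderm, 22.5, 15.9 and 4.15 CPM in ventral endoderm and 7.06, 0 and 0 CPM in dorsal endoderm. Ventral endoderm held 0.870% of the ventral mesoderm mean, and the endoderm difference of -2.15 did not pass (limma adjusted p = 0.897), against -9.03 in mesoderm (adjusted p = 1.83e-05). AMCG00004620 likewise held 2.00, 0 and 19.3 CPM in ventral endoderm and 0 in all 3 dorsal endoderm libraries. On the dorsal side, AMCG00012666 held 27.6, 0 and 0 CPM in dorsal endoderm and AMCG00004155 held 2.57, 0 and 15.4 CPM, and both were at 0 in all 3 ventral endoderm libraries. Mesoderm differences of these last 2 were 6.10 (limma adjusted p = 0.0168) and 6.01 (adjusted p = 0.0192).

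Genes sided without overlap in both layers were few. In 42 genes (0.312%) all dorsal libraries were above all ventral ones in endoderm and in mesoderm, which is 7.16% of the 587 endoderm genes and 6.95% of the 604 mesoderm genes. They include 4 of the 5 called genes. Of the 42, 14 were mesoderm-higher and 1 was endoderm-higher, against 6.52% and 3.67% of all genes tested. In 37 genes (0.275%) the ventral libraries were above in both layers, 8.94% of the 414 endoderm genes and 3.66% of the 1011 mesoderm genes. Of the 37, 7 were endoderm-higher and 2 were mesoderm-higher. The layer classes come from the same libraries. Of the 13471 genes tested, 26 were dorsal in endoderm and ventral in mesoderm, which is 4.43% of the 587 and 2.57% of the 1011. The reverse order was found for 15, which is 3.62% of the 414 and 2.48% of the 604. Over all genes tested, 4.48% were dorsal and 7.51% ventral without overlap in mesoderm. Across the genes tested, the side differences of the layers had a Pearson r of 0.078 and a Spearman rho of 0.070, as a description over genes of 1 set of libraries.

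Some genes had reads on 1 side of the endoderm only. A read was found in all 3 dorsal and no ventral endoderm library for 57 genes (0.423%). Of the 57, 47 also had a read in dorsal mesoderm and 5 were mesoderm-higher, against 6.52% of all genes tested. The highest, AMCG00020223, held 2.57, 396 and 14.2 CPM, so that 1 library carried most of its level, and its mean was at least 209.8-fold higher than a floor of 3 reads over the ventral endoderm group (0.656 CPM). Its limma adjusted p was 0.455. The converse held for 30 genes (0.223%), 26 of them with a read in ventral mesoderm. The highest of these, AMCG00009086, held 39.0, 114 and 9.67 CPM in ventral endoderm, at least 60.4-fold higher than the dorsal floor (0.899 CPM, adjusted p = 0.122). Floors cover counting error only, since amplified reads are not independent molecules, and 0 genes of either kind were called. Over all genes tested, 12.3%, 22.3% and 38.3% were at 0 in dorsal mesoderm replicates 1, 2 and 3. In ventral mesoderm these shares were 8.08%, 20.9% and 13.8%. Most genes tested thus had a read in mesoderm, as did most of the 57 and of the 30. Such genes can also pass the filter on low values through the 3 libraries of 1 side alone.

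Abundant transcripts separated 1 library rather than the sides. AMCG00006382, the most abundant in endoderm, held 76755, 78878 and 52274 CPM dorsally and 55853, 70961 and 17608 CPM ventrally. AMCG00009032 held 26952, 26927 and 24388 CPM dorsally and 38132, 20450 and 3185 CPM ventrally, and AMCG00012108 held 9398 to 14354 CPM dorsally and 3713 to 11117 CPM ventrally. Ventral replicate 3 was the lowest of the 6 libraries for all 3 genes. AMCG00008353 and AMCG00008355 were instead highest in ventral replicate 3, at 34845 and 11492 CPM, against 15032 to 22073 and 5858 to 8464 CPM in the other 5 libraries. None of the 5 passed between the sides, with differences from -0.39 to 0.94 and limma adjusted p between 0.669 and 1. The 10 genes with the highest mean CPM over the 6 endoderm libraries took 9.45% of reads in ventral replicate 3 and 14.5% to 17.1% in the other 5 endoderm libraries.

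**Figure D5:**
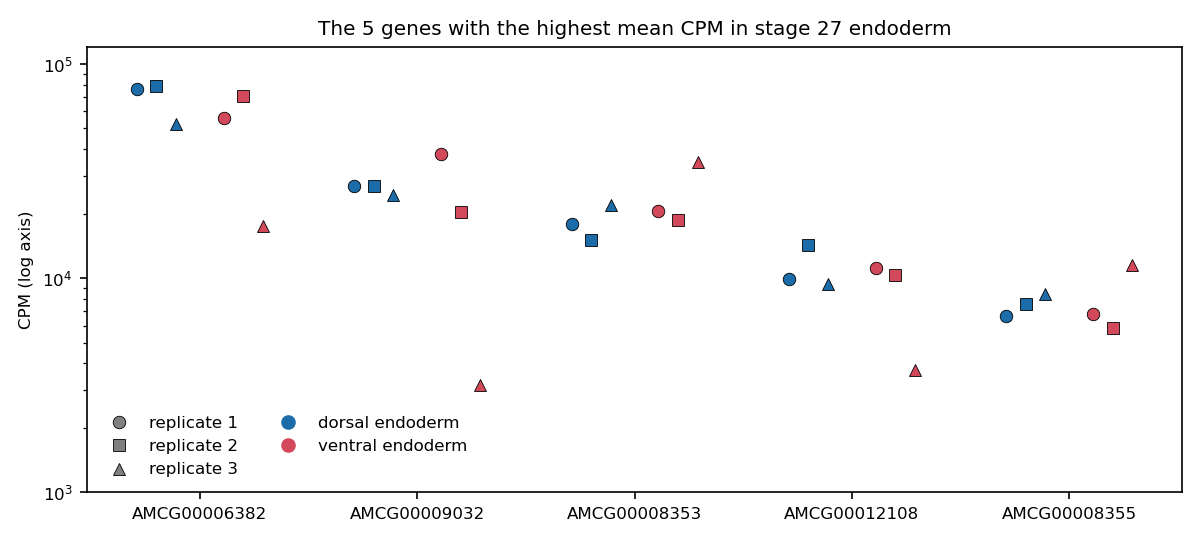
Level in CPM, on a log axis, of the 5 most abundant genes of stage 27 endoderm in each endoderm library, with 1 point per library. Ventral replicate 3 is lowest for AMCG00006382, AMCG00009032 and AMCG00012108 and highest for AMCG00008353 and AMCG00008355.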

How the data were processed

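Per the labels' protocols, RNA from laser-captured tissue was amplified as cDNA before library construction. Trimmomatic 0.38, STAR 2.6, edgeR (no version given) and R 3.6.0 were used, per the submitters' processing notes. The genome build and the counting tool are not given in the sources used here. The authors deposited 1 table of log2 CPM for all 36 libraries (12 groups of 3).

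In the deposited table, 2 to the power of each value implied a prior count of 2, and this relation returned library totals and reads. Below 200 reads, 100% of recovered values were whole within 0.02, and rebuilt values differed by at most 5e-09 on the log2 scale. CPM are recovered reads over the total. Stage 27 totals were 723011 to 1998280 reads. Floors of 3 counts cover counting error only.

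Deposited log2 values of the 12 stage 27 libraries were tested in limma 3.58.1 (1 mean per group, moderated variances with a trend, R 4.3.3), over 13471 genes with CPM over 1 in at least 3 of the 12. P-values were Benjamini-Hochberg adjusted within each contrast, with a threshold of 0.05. The model was also run on simulated counts with 1 spread per gene. That simulation does not cover a spread that differs between the layers. Shares of reads and detection were compared with exact two-sided permutation tests. Genes were named by largest difference, 2 per direction among those called, filled by the smallest p among genes whose groups do not overlap, plus the 5 most abundant in endoderm and 2 of each early layer list. AMCG00008212 and AMCG00020710 are those of the mesoderm list. AMCG00005500 and AMCG00004924 filled the interaction contrast and did not pass.

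Alternatives were the libraries fitted, voom, filters on low values, pseudocounts, scalings, no variance trend, weights per library, a replicate block and leaving out each library. Labels do not say that replicate numbers pair libraries. Deviations from group means correlated at -0.026 to 0.064 in the 18 same-numbered pairs, with 0 over 0.1. Same-side pairs of endoderm and mesoderm ran from 0.022 to 0.064 with the same number and from -0.051 to 0.018 with different numbers. The same-numbered values of these pairs thus all lay above the others. All values were low, and they cannot decide whether same-numbered libraries share animals. Pathway and cell type lists were not used, since 0 identifiers matched a name. The libraries, lists and genes were chosen with earlier results of these data known.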

Additional observations from a re-analysis of the deposited data

Results flagged for a closer look

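The dorsal minus ventral difference differed between endoderm and mesoderm, by the interaction contrast of limma, for 2 genes. For AMCG00009551 the endoderm difference minus the mesoderm difference was 4.60 on the log2 scale (adjusted p = 0.0366), with -0.12 in endoderm and -4.72 in mesoderm. For AMCG00004892 it was -2.60 (adjusted p = 0.0366), with -0.96 in endoderm and 1.64 in mesoderm. Groups of 3 libraries were not tested for outlying libraries.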

How the results depend on the processing

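The 5 genes called between the endoderm sides became 56 with all 36 libraries (0 of the 5 among them, and 43 of the 56 have no read in endoderm of stages 24 and 25), 0 with only the groups compared, 16 with voom, 1 with no filter, 8 at CPM over 4, 3 with a pseudocount of 5 CPM, 0 with no variance trend (752 at an unadjusted p under 0.05) and 13 with weights per library. Among 6607 genes at least as high in endoderm as in mesoderm, a choice made after the data were seen, 0 passed (403 at an unadjusted p under 0.05). That choice leaves out all 5 called genes, which were higher in mesoderm, so it says nothing about their stability. Leaving out 1 library at a time gave 1 to 49, with 3 without dorsal mesoderm replicate 1 or ventral mesoderm replicate 2. The 37 mesoderm calls became 171, 1, 59, 14 and 67 with all 36 libraries, only the groups compared, voom, no filter and weights per library, 16 among the endoderm genes, and 9 to 45 with 1 library left out (22 without ventral mesoderm replicate 1, 9 without replicate 2). Median centring changed their split from 9 dorsal and 28 ventral to 11 and 17. The 2 interaction calls became 61 with all 36 libraries, 0 with no filter, a pseudocount of 5 CPM or median centring, 1 with quantile normalization, no variance trend or only the endoderm genes, and 0 to 9 with 1 library left out. The cause was not tested. With the replicate number as a block, although the labels do not say that the numbers pair the libraries, 8 endoderm, 42 mesoderm and 1 interaction calls were found.

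The side difference in the early mesoderm share, 0.000149 percentage points, was 0.653, 0.114 and 0.000707 with the stage 27 list, the longer early list and without the 10 most abundant genes, and -0.0248 to 0.0394 with 1 library left out. It reversed without dorsal endoderm replicate 3 (-0.00801) and ventral endoderm replicates 2 (-0.0248) and 3 (-0.0142). The difference of 334 detected genes ran from -640 to 1360 and reversed without dorsal replicate 1 (-640) or ventral replicate 3 (-600).

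Over their alternatives, the adjusted p of AMCG00016115 ran from 1.09e-05 to 0.894 and the call held in 22 of 25. It held for AMCG00016707 in 11, AMCG00009892 in 19, AMCG00004458 in 20 and AMCG00017621 in 8 of 25, and all 5 kept their sign in each. With up to 37.6% of the tested genes at 0 in an endoderm library, depth and amplification limit what can be detected in low genes.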

Other observations

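Of the 5 genes called at stage 27, AMCG00016707 and AMCG00009892 had reads in endoderm of both sides at stages 24 and 25, in at least 2 of 3 libraries of each group. Many of these counts were low. AMCG00016707 had 4, 341 and 303 reads dorsally and 1, 21 and 5 ventrally at stage 24. At stage 25 it had 343, 1 and 67 dorsally and 0, 2159 and 1 ventrally. AMCG00009892 had 7, 206 and 406 reads dorsally and 0, 12 and 2 ventrally at stage 24. At stage 25 it had 19, 0 and 82 dorsally and 2, 763 and 1 ventrally. AMCG00016115 had a read in 0 of 3 dorsal and 2 of 3 ventral endoderm libraries at stage 24, and in 2 dorsal (up to 111 CPM) and 1 ventral (79.6 CPM) at stage 25. AMCG00004458 had a read in 0 of 3 dorsal and 1 of 3 ventral endoderm libraries at stage 24 (40 reads), and in 1 of 3 of each side at stage 25 (1 read each). AMCG00017621 had a read in 0 dorsal and 2 ventral endoderm libraries at stage 24 (2 reads and 1 read), and in 1 dorsal (20 reads) and 0 ventral at stage 25. One ventral endoderm library of stage 24 holds 3040 reads in all, so that 1 read there weighs heavily in CPM. AMCG00010986 had reads in 3 of 3 libraries of each endoderm group at both earlier stages.

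The mesoderm genes with the highest level, chosen from stages 24 and 25, were present in every stage 27 endoderm library. AMCG00008212 held 222, 156 and 428 CPM in dorsal endoderm and 575, 85.9 and 353 CPM in ventral endoderm, against 1684 to 5674 CPM in mesoderm. AMCG00020710 held 112, 120 and 148 CPM dorsally and 547, 77.0 and 26.3 CPM ventrally. Ventral endoderm replicate 1 was the highest of the 6 for both genes. Both belong to the early mesoderm list, so their reads are part of its shares given above and are no separate evidence. They made up most of the list's reads in every ventral library of stage 27. In dorsal endoderm replicate 2 and dorsal mesoderm replicate 1 they did not. The share of the list without these genes was not taken.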
